A study of Mus musculus with 2 samples.

Results

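Antisense RNAs are transcripts made from the DNA strand opposite to that of another gene. The genes described here are those that the GENCODE M21 annotation types as antisense and that reached 1 TPM or more in both libraries, where TPM is a level scaled for transcript length and library size. They number 103 of 2062 measured antisense genes, among 42462 genes with a symbol. They were chosen by these TPM values, so the levels below are a description and support nothing else.

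The data are polyA RNA-seq of tissue labelled large intestine from adult C57BL/6J mice, an inbred strain with no transgene or treatment named in the labels. The mice were 8 weeks old, and each library is said to pool males and females. There is 1 group with 2 biological replicates, recorded under a single donor, so no condition is compared, and wherever the libraries differ a single library stands against another. Reads were stranded pairs of 76 nt from RNA longer than 200 nt. Expected counts came to 58233142 in replicate 2 and 50189619 in replicate 1. The data went against the tissue label: of 6 markers of colon epithelium 0 reached 1 TPM in both libraries. Together they came to 1.4 TPM in replicate 2 (1.08 TPM of it Insl5), against 0.5 TPM in replicate 1. All 5 small intestine enterocyte markers and all 4 Paneth cell markers did reach it. Their sums, in that order, were 5584 and 19745 TPM in replicate 2, against 2012 and 11904 TPM in replicate 1. The enterocyte sum in replicate 2 was mostly Fabp6 (5279 TPM, against 477 TPM in replicate 1). Slc10a2 was also higher in replicate 2, while Sis, Lct and Apoa4 were higher in replicate 1. The tissue is therefore called gut tissue below. In whole tissue, fewer cells of a type and less RNA per cell cannot be told apart.

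As background, antisense genes can start close to the start of a coding gene and run away from it or back across it, can lie inside a coding gene, or can run into its end from the other side. A few have known functions: Airn is the imprinted RNA whose transcription silences Igf2r in cis, and Tug1 is a widely expressed, conserved noncoding RNA. Most of the rest carry only a systematic name. Of the 103 genes 79 had a Gm or Rik symbol, and 21 were named as the opposite-strand transcript of another gene or are Airn.

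Detection was uncommon in this biotype. The 103 genes were 5.0% of measured antisense genes, against 3.2% of lincRNA genes, 56.2% of protein-coding genes and 30.4% of all genes. A further 1141 antisense genes had 0 counts in both libraries. The detected genes together held 407 TPM of replicate 2 and 510.0 TPM of replicate 1, or 0.0407% and 0.051% of all TPM. Their median mean level was 2.48 TPM, against 2.98 TPM for the 89 detected lincRNA genes and 12.2 TPM for the 12072 detected protein-coding genes. Of the 103, 66 averaged 2 TPM or more, 23 averaged 5 or more, 8 averaged 10 or more and 3 averaged 20 or more. Expected counts per gene ran between 14 and 3836 in replicate 2 and between 12 and 2868 in replicate 1. The exact 95% Poisson interval on a gene's count had a median width of 19.3% either side, and it covers counting error only.

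Detected antisense genes had a median length of 901 nt as quantified, against 1153 nt for detected lincRNA and 2321 nt for detected protein-coding genes. Their median span on the chromosome was 5698 nt, against 4838 nt and 22679 nt. A single quantified transcript stood for 40 of the 103 genes, and 63 had 2 or more, up to 13. In 21 of these 63 genes 1 transcript held at least 90% of the gene's TPM in both libraries, and in 49 the same transcript ranked first in both. Rab26os and Brip1os were of the first kind, with a leading transcript at 97.1% and 100% in replicate 2 and at 97.0% and 99.9% in replicate 1. In 4933431E20Rik, a gene with 12 transcripts, different transcripts led, with 25.3% in replicate 2 and 43.6% in replicate 1.

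**Figure D1:**
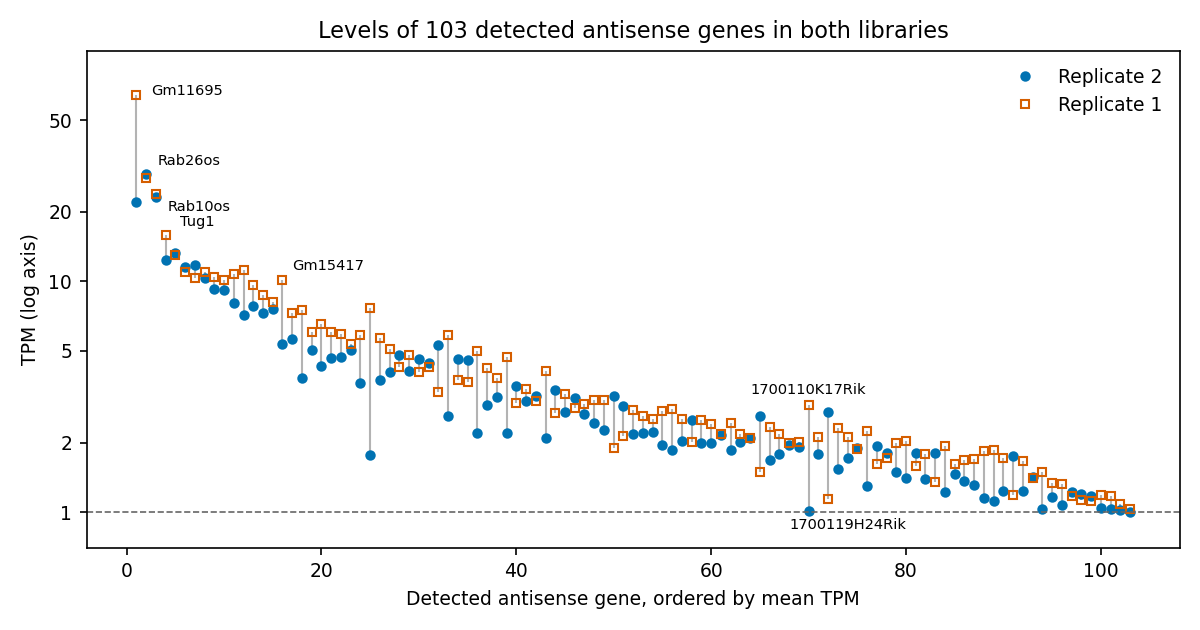
TPM (log axis) of the 103 detected antisense genes ordered by mean, with filled circles for replicate 2, open squares for replicate 1 and a line joining both; the dashed line marks 1 TPM. Gm11695 has the highest mean, through replicate 1, while Rab26os is highest in replicate 2; 66 genes average 2 TPM or more.

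By mean TPM, the 3 highest genes were Gm11695, Rab26os and Rab10os. Gm11695 (chr11:115462045-115463454, minus strand, mm10) had 21.99 TPM in replicate 2 and 64.3 TPM in replicate 1. Its libraries thus lay far apart. Rab26os (chr17:24528248-24528744, plus strand) had 29.2 and 28.1 TPM in replicates 2 and 1, a mean of 28.7 ± 0.728 TPM (SD, n = 2). Rab10os (chr12:3235504-3250377, plus strand) had 23.2 and 23.9 TPM in replicates 2 and 1, or 23.5 ± 0.467 TPM. Rab26os and Rab10os were close in both libraries, and both lie opposite small GTPases of vesicle traffic. TPM is scaled for length, and the leading transcript of Rab26os had 298 nt. Rab26os rested on 153 and 114 expected counts in replicates 2 and 1, and Gm11695 on 247 and 555. Rab10os had 3836 and 2868 expected counts.

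Tug1 followed with 12.3 TPM in replicate 2 and 15.8 TPM in replicate 1. Ttc39aos1 had 13.3 and 13.0 TPM in replicates 2 and 1. Gm10552 had 11.6 and 11.0 TPM, Gt(ROSA)26Sor 11.7 and 10.3 TPM, and 1600020E01Rik 10.3 and 11.0 TPM, each in replicates 2 and 1. The order among these 5 genes changes between the libraries. Gt(ROSA)26Sor is the noncoding gene of the Rosa26 locus, which is used as an insertion site because it is active in nearly all mouse tissues. Gm10552 lies in the cluster of Sp140-like genes, whose members are similar in sequence, and its counts were not whole, so its value is uncertain. The next genes by mean level were Brip1os, Arhgap27os2, Gm10399, Gm11586, 2010103J01Rik, Gm16536 and 2510046G10Rik, with means between 7.88 and 9.85 TPM.

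The limit of 1 TPM cut through a dense range. Just inside it, Gm15401 had 1.0 and 1.03 TPM in replicates 2 and 1, and Gm16365 had 1.02 and 1.08 TPM. Just outside it, 9330020H09Rik had 0.99 and 0.98 TPM, and Gm19412 had 1.16 TPM in replicate 2, against 0.99 TPM in replicate 1. Such neighbours lie closer together than their counting error. The number of antisense genes at 1 TPM or more was 117 in replicate 2 and 133 in replicate 1, and 44 genes passed in 1 library only.

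By gene span on mm10, 95 of the 103 antisense genes overlapped a measured gene on the opposite strand. The partner of each is here the overlapping opposite-strand gene with the highest mean TPM. All 95 partners were protein-coding. Where several genes overlapped, this choice passed over noncoding genes with little or no signal, such as 1700096J18Rik opposite Gm11696. The partners were 93 different genes, since 2 of them, among them Traf3ip2, each served 2 antisense genes. Of the antisense genes, 29 overlapped 2 or more opposite-strand genes, up to 5, not all of them measured. The 8 without an overlap lay near a coding gene on the opposite strand in most cases: 2810001G20Rik was 16 nt from Cox10, Gm11423 was 66 nt from Lig3 and Map2k3os was 166 nt from Map2k3. Gm14286 was the exception, 14609 nt from Nnat. Levels of these 8 genes ranged between 1.31 and 13.3 TPM in replicate 2 and between 1.7 and 13.0 TPM in replicate 1.

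By M21 exons, the overlap reached exons of the partner in 83 of 95 pairs, and in 12 it touched introns only. By exons of the quantified transcripts only, exons overlapped in 79 of 95 pairs. Over the 83 pairs the median exon overlap was 234 nt and ran between 3 and 1778 nt, a median of 13.6% of the antisense exon bases. At least 50% of the antisense exon bases were shared in 9 pairs. Among all 83 pairs, the longest overlap was that of Gm10501 with Hspa1l, an Hsp70-family gene (1778 nt). That of Gm17029 with Pex14, a peroxisome import factor, was close to it (1776 nt). Next were Grin1os with Grin1, an NMDA receptor subunit (1307 nt), and 9530082P21Rik with Flywch1 (1071 nt). Arhgap27os2 with Arhgap27, a GTPase-activating protein (1055 nt), and 4933431E20Rik with Eps8l3 (964 nt) followed. The overlap with Flywch1 was 0 nt by exons of the quantified transcripts. Longer exon overlaps lay with genes that were not the partner: 2617 nt for 1110002L01Rik with Kif3c and 2496 nt for Gm9917 with Rassf1. All exon bases of Gm12999 lay in exons of Atpif1, the ATP synthase inhibitor, and all of those of Gm11175 in exons of Jund, an AP-1 subunit.

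Head-to-head overlap, in which the antisense gene covers its partner's beginning, was the most frequent position. Of the 95 pairs 45 (47.4%) overlapped in this way, 20 (21.1%) overlapped tail-to-tail, 28 (29.5%) had the antisense gene inside its partner and 2 (2.11%) the partner inside the antisense gene. Among the 1783 antisense genes with a measured partner that did not pass the limit, 24.2% were head-to-head, 14.5% tail-to-tail and 57.2% inside the partner. Starts of the leading transcripts lay within 1000 nt of each other in 37 detected pairs (38.9%), against 17.4% of pairs that were not detected. The 17.4% is not a like measure: 1141 of all 2062 antisense genes had 0 counts in both libraries and so no leading transcript. For such genes the transcript first by identifier gave the start. Exons overlapped in 87.4% of detected pairs, against 60.1%. These shares are descriptions, since no test over gene lists was made.

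**Figure D2:**
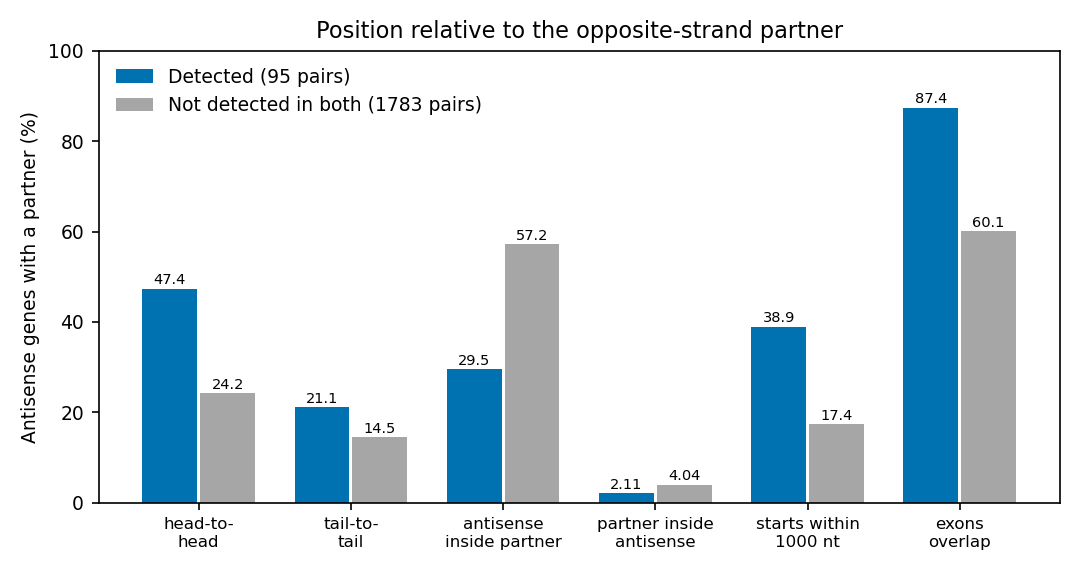
Percent of antisense genes with a measured partner in each position class, for detected genes (blue, 95 pairs) and for genes below the limit (grey, 1783 pairs). Head-to-head pairs are 47.4% against 24.2%, and genes inside their partner 29.5% against 57.2%.

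Most partners were themselves expressed. A partner at 1 TPM or more in both libraries was found for 87 of 95 detected antisense genes (91.6%), against 1162 of 1783 antisense genes below the limit (65.2%). The median partner level was 17.4 TPM against 4.16 TPM. Across the 95 detected pairs Pearson's r of log2(TPM + 1) was 0.018 and the Spearman correlation 0.008. The rule fixed the lower end of the antisense levels, and the pairs share their libraries, so this correlation is a description of the detected genes with no p-value.

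Of the 37 pairs with starts within 1000 nt, the antisense gene started upstream of its partner, pointing away from it, in 12, and downstream of the partner's start in 25. In 7 pairs the starts were within 100 nt. The closest was Gm2415, 2 nt downstream of the start of Ctdspl, a phosphatase of RNA polymerase II, with 2.67 and 2.94 TPM in replicates 2 and 1, against 17.7 and 25.6 TPM for Ctdspl. Ccdc142os started 14 nt downstream of Mrpl53, a mitochondrial ribosome subunit, with 3.11 and 2.82 TPM in replicates 2 and 1, against 55.03 and 60.3 TPM for Mrpl53. 2010007H06Rik started 41 nt downstream of Colca2, with 1.03 and 1.18 TPM, against 4.04 and 4.09 TPM. The coding partner was higher in both libraries in these 3 closest pairs. Among the 7 pairs, 1810034E14Rik, 58 nt upstream of Cdc14b, was the 1 above its partner.

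**Figure D3:**
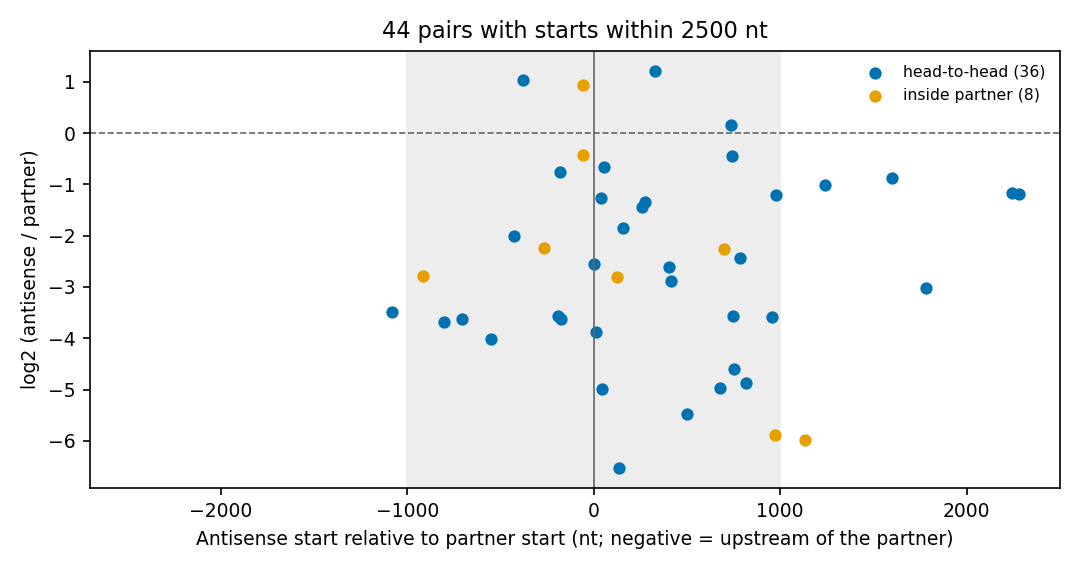
Distance between the antisense start and the partner's start (x axis, nt, negative where the antisense gene starts upstream) against log2((antisense TPM + 1)/(partner TPM + 1)) (y axis) for the 44 pairs with starts within 2500 nt; the shaded band is 1000 nt either side. Pairs below the dashed line have the higher level in the partner, at any distance.

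RefSeq promoter windows (250 bases before to 50 after the start, GRCm38.p6) were matched for 52 of 103 antisense genes and 74 of 93 partners, and 39 pairs had both. The windows of 8 pairs overlapped each other on opposite strands, so the RefSeq starts of these pairs lie close together. The starts of the leading transcripts, used above, can differ: relative to the partner's, with negative values upstream, the antisense start lay at -66750 nt for 1110002L01Rik and Asxl2, at -88999 nt for A930024E05Rik and Kdm2b and at 1600 nt for 3010003L21Rik and Sinhcaf. The TPM values below are those of whole genes and are not tied to the RefSeq start. The 4 with the nearest RefSeq starts are shown on the antisense gene's strand, 5′ to 3′, as examples of such shared windows. Capitals mark the GC box GGGCGG, the CCAAT box, the ETS core CCGGAAG or the TATA box TATAAA, on either strand.
Tmem51os1: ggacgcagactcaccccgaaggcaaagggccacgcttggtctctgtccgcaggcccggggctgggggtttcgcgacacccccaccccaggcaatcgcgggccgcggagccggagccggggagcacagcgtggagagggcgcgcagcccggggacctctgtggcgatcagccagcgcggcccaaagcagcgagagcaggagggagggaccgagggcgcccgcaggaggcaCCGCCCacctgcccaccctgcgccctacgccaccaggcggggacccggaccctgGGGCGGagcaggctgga
3010003L21Rik: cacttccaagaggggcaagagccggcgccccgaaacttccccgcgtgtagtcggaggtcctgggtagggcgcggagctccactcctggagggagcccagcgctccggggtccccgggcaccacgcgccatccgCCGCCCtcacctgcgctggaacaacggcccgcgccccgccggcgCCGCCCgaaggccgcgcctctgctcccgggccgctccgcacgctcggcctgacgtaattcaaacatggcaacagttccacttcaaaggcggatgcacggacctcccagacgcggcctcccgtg
1110002L01Rik: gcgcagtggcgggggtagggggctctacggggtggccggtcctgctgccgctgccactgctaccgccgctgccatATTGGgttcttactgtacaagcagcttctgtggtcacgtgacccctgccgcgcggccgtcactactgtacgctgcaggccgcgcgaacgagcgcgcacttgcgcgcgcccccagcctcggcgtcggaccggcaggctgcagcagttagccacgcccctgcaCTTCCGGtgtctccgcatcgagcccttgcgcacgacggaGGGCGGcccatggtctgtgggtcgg
1810034E14Rik: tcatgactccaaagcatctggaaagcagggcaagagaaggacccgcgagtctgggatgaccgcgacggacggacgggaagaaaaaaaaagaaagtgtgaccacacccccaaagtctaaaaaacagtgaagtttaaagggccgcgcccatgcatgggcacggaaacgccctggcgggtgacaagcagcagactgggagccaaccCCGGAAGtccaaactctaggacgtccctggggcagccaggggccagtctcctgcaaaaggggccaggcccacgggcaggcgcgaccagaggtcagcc

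The window of Tmem51os1 (chr4:142084048-142084347, plus strand) held 2 GC boxes, and its RefSeq start lay 6 nt downstream of that of Tmem51, while its leading transcript started 552 nt upstream. Tmem51os1 had 1.23 and 1.67 TPM in replicates 2 and 1, against 42.1 and 35.6 TPM for Tmem51. The window of 3010003L21Rik (chr6:148944607-148944906, plus strand) also held 2 GC boxes, and its RefSeq start lay 31 nt upstream of that of Sinhcaf, a subunit of the SIN3-HDAC complex, while its leading transcript started 1600 nt downstream. 3010003L21Rik had 1.89 and 1.87 TPM in replicates 2 and 1, against 4.33 and 4.31 TPM for Sinhcaf. Both members of this pair hardly differed between the libraries.

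The window of 1110002L01Rik (chr12:3426698-3426997, minus strand) held a CCAAT box, a GC box and an ETS core. Its RefSeq start lay 110 nt upstream of that of Asxl2, a Polycomb-associated gene. 1110002L01Rik had 2.23 and 2.53 TPM in replicates 2 and 1, against 3.35 and 5.79 TPM for Asxl2. The window of 1810034E14Rik (chr13:64248450-64248749, plus strand) held an ETS core. Its RefSeq start lay 162 nt upstream of that of Cdc14b, a cell-cycle phosphatase, and its leading transcript started 58 nt upstream. 1810034E14Rik had 4.41 and 4.26 TPM in replicates 2 and 1, against 1.29 and 2.43 TPM for Cdc14b. Of these 4 pairs, 1810034E14Rik was the one above its partner. The other overlapping windows were those of 1810021B22Rik with Trabd, 2900093K20Rik with Oser1, A930024E05Rik with Kdm2b and Gm10687 with Mcam.

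Over the 52 matched antisense windows, GGGCGG was present in 55.8%, against 62.2% of the 74 partner windows and 35.9% of 27025 promoters, 1 for each symbol in the table. CCAAT was present in 34.6%, against 33.8% and 37.9%. CCGGAAG was present in 11.5%, against 18.9% and 9.12%, and TATAAA in 7.69%, against 9.46% and 14.2%. The median ratio of observed to expected CpG was 0.63, against 0.71 and 0.39. All searches took both strands, and GGGCGG may overlap itself in a run. The table of all promoters holds many genes not expressed in this tissue, and a match is a string of letters, not a bound site.

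The antisense RNA was the lower partner in most pairs. It was below its partner in both libraries in 77 of 95 pairs, above it in both in 16 and mixed in 2. The median log2((antisense TPM + 1)/(partner TPM + 1)) was -1.89, and it ran between -6.53 and 4.44. The median was -2.55 in the 45 head-to-head pairs, -2.25 in the 28 with the antisense gene inside and -0.63 in the 20 tail-to-tail pairs. The antisense gene was above its partner in both libraries in 3 head-to-head pairs, 6 inside pairs, 6 tail-to-tail pairs and 1 pair with the partner inside. The pseudocount of 1 draws the ratio of low genes towards 0. Where an antisense gene had 2 or more measured opposite-strand genes, taking the highest as partner tends to lower the ratio. Some of the 29 with 2 or more opposite-strand genes, such as A930024E05Rik, had only 1 that was measured. The result with the partner of the longest exon overlap is given further below.

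**Figure D4:**
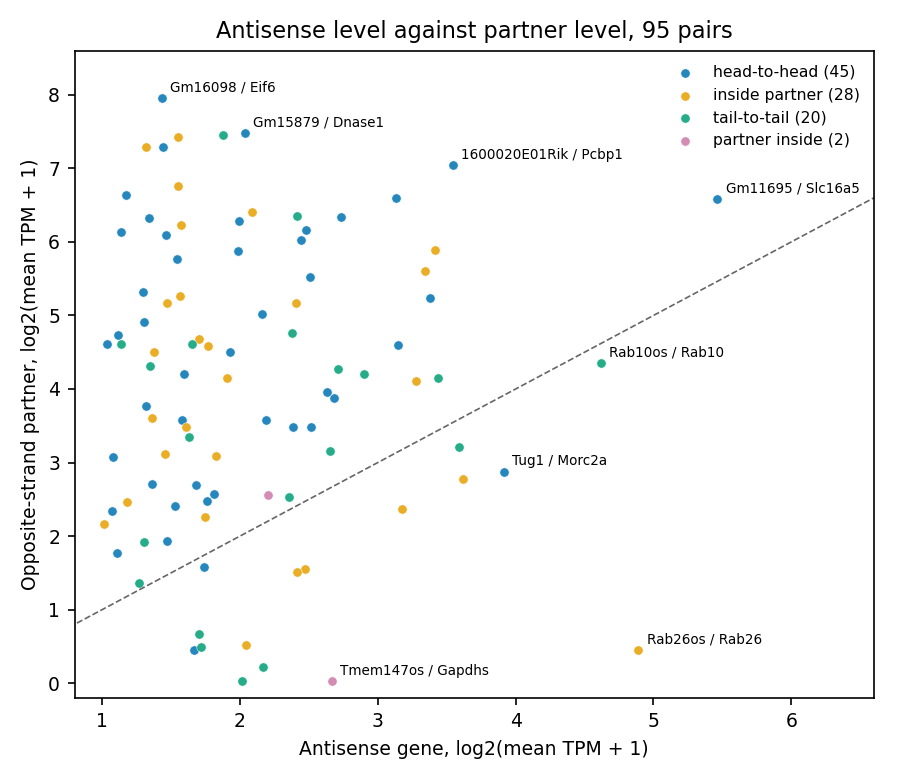
log2(mean TPM + 1) of each detected antisense gene (x axis) and of its opposite-strand partner (y axis) for 95 pairs, coloured by position; the dashed line marks equal levels. Most pairs lie above the line, where the partner is higher, and Rab26os with Rab26 lies farthest below it.

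In 8 of the 16 pairs with a higher antisense level, the partner was below 1 TPM in both libraries. Rab26os had 29.2 and 28.1 TPM in replicates 2 and 1, against 0.43 and 0.31 TPM for Rab26, a GTPase of secretory granules; the RNA lies in introns of Rab26 and holds the snoRNA gene Snord60 on its own strand. Tmem147os had 4.65 and 6.05 TPM in replicates 2 and 1, against 0.04 and 0.0 TPM for Gapdhs, the sperm form of GAPDH. Gm10501 had 3.16 and 3.83 TPM, against 0.17 and 0.16 TPM for Hspa1l. Grin1os had 3.2 and 3.03 TPM, against 0.4 and 0.47 TPM for Grin1.

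The others of these 8 were 6330418K02Rik over Gal3st4, a sulfotransferase, Atcayos over Atcay, a brain gene, 2810468N07Rik over Sox8, a transcription factor, and Trmt61b over Spdya, a cell-cycle regulator. Trmt61b had 3.38 and 2.69 TPM in replicates 2 and 1, against 0.05 and 0.0 TPM for Spdya. Its symbol is that of a tRNA methyltransferase gene, although M21 types the gene and its transcripts as antisense. Several of these partners, among them Gapdhs, Grin1 and Atcay, are known for testis or brain.

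In the other 8 pairs both genes were detected. Rab10os had 23.2 and 23.9 TPM in replicates 2 and 1, against 17.7 and 21.3 TPM for Rab10. Tug1 had 12.3 and 15.8 TPM, against 6.24 and 6.44 TPM for Morc2a, a chromatin ATPase. Gt(ROSA)26Sor had 11.7 and 10.3 TPM, against 8.3 and 8.21 TPM for Thumpd3. In these 3 pairs the values of the 2 genes did not overlap. Gm16536 had 7.29 and 8.75 TPM in replicates 2 and 1, against 3.64 and 4.7 TPM for Bace1, the beta-secretase. The remaining pairs were Gm10552 with Sp140, A530040E14Rik with C130026I21Rik, 1810034E14Rik with Cdc14b and Zbtb11os1 with Zbtb11.

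At the other end, 33 antisense genes were under 10% of their partner's TPM and 10 were under 2%. Gm16098 had 1.81 and 1.59 TPM in replicates 2 and 1, against 236 and 261 TPM for Eif6, a factor of the large ribosomal subunit, and thus 0.768% and 0.609% of its level. Gm11175 had 1.15 and 1.84 TPM, against 158 and 153 TPM for Jund. Gm12999 had 1.53 and 2.32 TPM, against 149.7 and 192 TPM for Atpif1. 2310016G11Rik had 1.4 and 2.03 TPM, against 135 and 177 TPM for Myh14, a nonmuscle myosin. 4933431E20Rik with Eps8l3 and 1110035H17Rik with Fam98c were also between 1.21% and 1.76% of the partner's level.

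Such low shares bear on how reads were assigned to strands. The libraries are stranded per the labels, but no source used here says whether the counting used the strand, and without it reads of a gene and its antisense partner cannot be told apart. Expected counts were whole (within 0.005) for 97 of the 103 antisense genes and, among the 83 pairs with exon overlap, for both genes in 71. Among all measured antisense genes, 13 had at least 90% of their exon bases in exons of a partner at 50 TPM or more. The median level of these 13 was 0.0965% of the partner's TPM, the highest was 1.13%, and 4 were under 0.1 TPM in both libraries. Gm12999 and Gm11175 were the 2 of the 13 that passed the limit. Tug1, Gm10552, A530040E14Rik and Gm16008 were among the 6 genes with counts that were not whole.

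2010103J01Rik (chr1:185312187-185313803, plus strand), inside Iars2, the mitochondrial isoleucyl-tRNA synthetase gene, holds the genes of miR-194-1 and miR-215 on its own strand. It had 7.79 TPM in replicate 2 and 9.63 TPM in replicate 1, against 15.8 and 16.6 TPM for Iars2. As background, these miRNAs are known as abundant in gut epithelium, but RNA over 200 nt holds no mature miRNA, so the level is that of the longer transcript. Their mature sequences (RefSeq, GRCm38.p6) are shown with the seed, bases 2 to 8, in capitals, beside miR-192-5p of chromosome 19, which shares the seed of miR-215-5p.
mmu-miR-194-5p: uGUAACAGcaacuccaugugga
mmu-miR-194-1-3p: cCAGUGGAgcugcuguuacuuc
mmu-miR-215-5p: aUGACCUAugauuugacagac
mmu-miR-215-3p: uCUGUCAUucuguaggccaau
mmu-miR-192-5p: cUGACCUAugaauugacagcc

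Transcription factors of gut and immune cells were looked up as partners. Of 60 listed factors 58 were detected, against 56.2% of all measured protein-coding genes. Of the 60 factors, 13 had a measured antisense gene (15 antisense genes in all). Of these 15 antisense genes 3 passed the limit, Tbx3os1 among them, and the share over all measured antisense genes was 5.0%. The list was drawn up with earlier results of these data known. Tbx3os1 had 1.72 and 2.12 TPM in replicates 2 and 1, against 32.0 and 74.8 TPM for Tbx3, a T-box factor. Gata5os had 0.21 and 0.28 TPM, against 39.2 and 47.3 TPM for Gata5, a factor of the gut endoderm, and did not pass. Gm26642, opposite Elf3, an epithelial ETS factor, had 0 and 0.04 TPM, against 265 and 229.8 TPM for Elf3. These 2 antisense genes are examples of those that did not pass.

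Airn (chr17:12741311-12860136, plus strand) had 2.9 TPM in replicate 2 and 4.22 TPM in replicate 1, against 8.45 and 13.6 TPM for Igf2r, the receptor for IGF2 and mannose 6-phosphate. Its start lay 28290 nt inside Igf2r and its exons did not overlap exons of Igf2r. Sp3os had 5.03 and 5.33 TPM in replicates 2 and 1, against 11.1 and 17.97 TPM for Sp3, a zinc finger factor. Man2c1os had 2.71 and 3.24 TPM, against 73.7 and 80.3 TPM for Man2c1, a cytosolic mannosidase. Zfp335os had 1.69 and 2.35 TPM, against 15.1 and 19.8 TPM for Zfp335. All 4 stood below their partner in both libraries.

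The typical shift between the libraries was close to that of all genes. With a pseudocount of 1 TPM, the log2 ratio of replicate 2 over replicate 1 had a median of -0.17 for the 103 genes, -0.20 for their 93 partners and -0.15 for all 13462 genes with a mean of at least 1 TPM. A difference of at least 2-fold was seen in 2 of the 103 genes (1.94%), against 5.62% of all 13462 genes, 4.87% of the 12909 genes detected in both libraries and 8 of 93 partners (8.6%). The pseudocount weighs on low genes: with 0.1 in place of 1, 7 of the 103 antisense genes were 2-fold apart, against 8.34% of all genes. The rule asks for 1 TPM in both libraries, which keeps out genes far apart. Of the 103 genes 29 were higher in replicate 2, 73 in replicate 1 and 1 was equal. The median shift of all genes had the same direction. The same count over all genes was not made, so these numbers have no background to be set against. With TMM scaling the medians were -0.02 for antisense genes and 0.01 for all genes.

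Both genes past 2-fold, Gm11695 among them, were higher in replicate 1, as were 4.46% of all genes; in replicate 2 no antisense gene and 1.16% of all genes were 2-fold higher. With the pseudocount of 0.1, 6 antisense genes were 2-fold higher in replicate 1 and 1 in replicate 2. Gm11695 had a log2 ratio of -1.51. Its partner Slc16a5, of the monocarboxylate transporter family, had 61.1 and 129.7 TPM in replicates 2 and 1, a log2 ratio of -1.07. With TMM scaling the ratio of Gm11695 was -1.20, and it was the 1 gene still past 2-fold. The largest ratios in the other direction among genes with a mean of at least 2 TPM were those of Rap1gapos (5.29 and 3.32 TPM in replicates 2 and 1), Gm14097 (2.62 and 1.49 TPM) and Gm20324 (3.2 and 1.9 TPM).

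**Figure D5:**
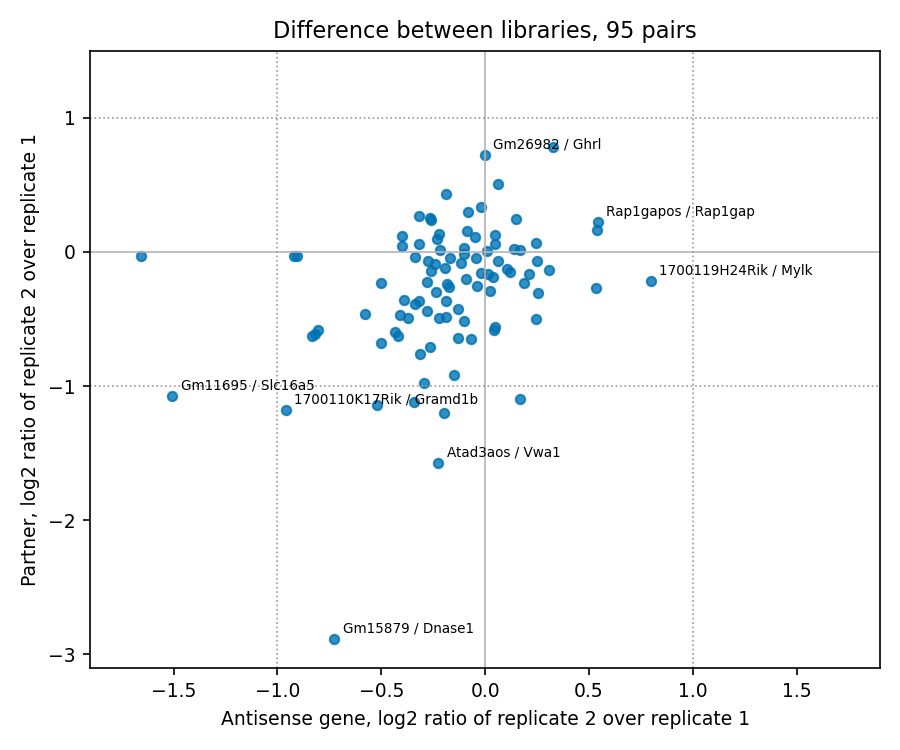
log2((TPM + 1) of replicate 2/(TPM + 1) of replicate 1) of each antisense gene (x axis) and of its partner (y axis) for 95 pairs; dotted lines mark 2-fold. Gm11695 with Slc16a5 is past 2-fold on both axes and Gm15879 with Dnase1 on the partner axis.

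Across the 95 pairs, the library ratio of the antisense gene and that of its partner had a Pearson's r of 0.35 and a Spearman correlation of 0.36. All points share the same 2 libraries, so this is a description with no p-value. Among the 8 pairs whose partner was at least 2-fold apart, all 8 partners were higher in replicate 1, and so was the antisense gene in 7; over all 103 antisense genes, 73 were. With the pseudocount of 1 TPM, the antisense gene was itself 2-fold apart in 1 of the 8. That pseudocount draws ratios of low genes towards 0, and 1700110K17Rik fell just short with a log2 ratio of -0.96. Gm15879 had 2.09 TPM in replicate 2 and 4.11 TPM in replicate 1, while Dnase1, a secreted nuclease, had 41.6 and 313 TPM. 1700110K17Rik had 1.01 and 2.91 TPM, while Gramd1b, a sterol transfer protein, had 22.5 and 52.1 TPM. Gm13205 had 1.93 and 1.61 TPM, while Casz1, a zinc finger factor, had 22.1 and 48.2 TPM. Cell type markers moved too: the small intestine enterocyte marker Apoa4 reached 91.1 TPM in replicate 2, against 1094 TPM in replicate 1, and Fabp6 had 5279 and 477 TPM. The part of such markers in these ratios was not tested.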

How the data were processed

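Per the labels, polyA RNA of 2 libraries (1 group) was sequenced. For each library the authors deposited a gene and a transcript table on mm10 with GENCODE M4, per the accompanying notes. No source used here gives the aligner, the counting program or a strand setting. Expected counts were estimated by the authors and need not be whole. The deposited TPM was scaled by the authors to a fixed total over all features. The deposited FPKM values, posterior means and bounds on TPM (a signal column) served as alternatives. The deposited percent of a gene's TPM in each transcript was used as given, and lengths as deposited.

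Symbols, biotypes and positions came from GENCODE M21, matched on identifiers without version; 258 of 260 quantified transcripts of the detected genes were in M21. Genes overlapped when they shared at least 1 base on opposite strands. Starts were those of the leading transcripts. Ratios used a pseudocount of 1 TPM. With 1 group no p-value was computed. The named genes were the 15 highest, the 6 highest and 6 lowest against their partner and the 6 longest exon overlaps with the partner. Also named were the 6 most different between libraries in each direction at a mean of at least 2 TPM. Genes at the limit, opposite-strand symbols and partners on the factor list were named too. Others were named after their values were seen. The genes and lists were chosen with earlier results of these data known.

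A chi-square check over 17007 genes with at least 20 counts put 65.4% of them past the 95% limit of counting error, so the libraries are not one library deposited again. Steps were tested on simulated data. Expected counts, rounded to whole numbers, were scaled in R 4.3.3 with DESeq2 1.42.0 (median-ratio size factors) and edgeR 4.0.16 (TMM). The rest was run in Python 3.11.15 with scipy 1.17.1, pandas 2.3.3, matplotlib 3.10.9 and numpy 2.4.6. Contig and junction lists on mm9 were not used here. Values of some genes that meet the naming rule are not reported here.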

Additional observations from a re-analysis of the deposited data

How the results depend on the processing

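The number of detected antisense genes was 175 at 0.5 TPM, 58 at 2 TPM and 642 with more than 0 counts in both libraries, and between 117 and 133 with either library alone; it was between 82 and 131 under the other 5 settings. Overlap by span was found for 163 genes at 0.5 TPM, 53 at 2 TPM and 46 when at least 50% of the antisense span had to lie inside, and for between 106 and 122 with either library alone. The median log2 ratio of antisense over partner stayed below 0: it was -2.30 with a pseudocount of 0.1, -2.39 with none, -1.35 with the partner of the longest exon overlap, -2.04 with posterior means, -1.87 with FPKM, -2.52 over pairs with no exon overlap and between -2.00 and -1.99 with either library alone. By expected counts, 10 genes were above their partner, against 16 by TPM; the number was 23 with the partner of the longest exon overlap, 13 over genes with whole counts, and 16 or 17 with either library alone. With the longest exon overlap as partner, the log2 ratio was 2.10 for Gm11696 (with 1700096J18Rik, listed at 0, in place of Gna13) and 0.42 for Gm16098 (with Fam83c in place of Eif6). The number of genes 2-fold apart was 7 with a pseudocount of 0.1 (background 8.34%), 1 with TMM (3.78%), 1 with median-ratio size factors (3.77%) and 1 over genes with whole counts. The median log2 ratio between libraries was -0.02 with TMM and with median-ratio size factors and -0.05 with FPKM, against -0.17. The correlation of library ratios was 0.48 over genes with at least 50 counts and 0.32 without Gm15879 and Dnase1. Genes with 1 leading transcript numbered 12 by posterior means, against 21. The cause of these shifts was not tested. Lower TPM bounds, quantified exons, whole counts, pairs without exon overlap and pairs left out were chosen as alternatives after seeing the data. No paired analysis was possible because the study has 1 group. Most genes rest on few counts, with a counting interval of up to 61.5% either side.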

Other observations

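Some antisense genes passed 1 TPM in 1 library only and are outside the 103. Tnfsf13os had 0.74 TPM (15 expected counts) in replicate 2 and 22.9 TPM (383 expected counts) in replicate 1, while Tnfsf13, the cytokine APRIL of plasma cell survival, had 11.8 and 12.3 TPM. Hnf4aos, opposite the gut nuclear receptor gene Hnf4a, had 0.97 and 4.91 TPM in replicates 2 and 1, while Hnf4a had 271 and 351 TPM. Runx2os1 had 0.93 and 2.34 TPM, while Runx2 had 0.81 and 3.48 TPM. Gm10680 had 0.04 and 1.75 TPM, while Apoa4, an apolipoprotein of enterocytes, had 91.1 and 1094 TPM. Etaa1os had 2.23 TPM (25 expected counts) in replicate 2 and was listed at 0 in replicate 1. These genes were picked for naming after their values were seen, and each difference rests on 1 library against 1 and was not tested.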
